A study of Mus musculus with 11 samples.

Results

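Malat1, Neat1, Rn7sk, Rmrp, Rpph1, Terc, Rny1 and Rny3 are noncoding RNAs that work as RNA, in the nucleus or as the core of a ribonucleoprotein. They were chosen by symbol: every deposited row was kept whose Ensembl gene ID carries 1 of these 8 symbols in the GENCODE vM21 annotation. Of the 8 symbols, 6 had a row among 56980 genes. Rn7sk and Terc had no row under their annotated IDs and are not analysed here. The cells were primary lung fibroblasts from mice, in 4 groups: cGAS KO females (n = 3), cGAS KO males (n = 3), WT females (n = 2) and WT males (n = 3). All were grown at 5% CO2 and 5% O2 with 15% serum, and libraries were made after removal of ribosomal RNA. Strain, age and the KO allele are not given in the sources used here, and the extraction text of the labels names pulverized tissue although the samples are labelled as cultured cells. The labels number the samples within genotype and sex but do not say that each is 1 animal, so p-values measure the spread between these samples.

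Malat1 and Neat1 are long RNAs made side by side by RNA polymerase II. Malat1 sits in nuclear speckles, bodies rich in splicing factors, and Neat1 is the RNA scaffold around which paraspeckle proteins gather. The small members analysed here are products of RNA polymerase III. Rpph1 is the catalytic RNA of RNase P, which trims the leader from transfer RNA precursors. Rmrp is the related RNA of RNase MRP, which acts on ribosomal RNA precursors. Rny1 and Rny3 are Y RNAs, which bind the Ro60 protein. The long and the small members meet at the 3′ ends of Malat1 and the long form of Neat1. These ends are cut by RNase P rather than given a poly(A) tail. They are shielded by a triple helix between U-rich stretches and an A-rich stretch.

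The 3′ ends are shown because Malat1 and Neat1 share runs of bases there. The sequences below are from the GENCODE vM21 transcripts of GRCm38, written as DNA letters of the sense strand. Capitals mark a run that holds a U-rich stretch, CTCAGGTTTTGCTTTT (16 bases), and an A-rich run, AAAAAGCAAAA (11 bases), both shared by the pair.
Malat1 bases 6601 to 6761: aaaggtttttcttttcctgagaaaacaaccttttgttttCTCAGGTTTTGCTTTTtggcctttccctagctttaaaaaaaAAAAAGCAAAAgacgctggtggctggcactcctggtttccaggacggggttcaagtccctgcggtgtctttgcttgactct
Neat1 bases 20674 to 20771: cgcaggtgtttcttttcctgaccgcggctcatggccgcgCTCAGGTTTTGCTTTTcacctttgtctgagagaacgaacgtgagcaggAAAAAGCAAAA
The longer run was found in 2 of 141767 annotated transcripts, searched on the transcribed strand, 1 of Malat1 and 1 of Neat1. As the run is defined as shared by the pair, these 2 hits were fixed in advance, and a run of this length is rare in any case. AAAAAGCAAAA was found in 0.436% of transcripts. The A-rich run closes the annotated Neat1 transcript, while the annotated Malat1 transcript runs on for another 292 bases, a stretch that includes the transfer-RNA-like small RNA released by RNase P.

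The RNA components of RNase MRP and RNase P are shown as a pair because their counts are compared below. Capitals mark a 9-base run near their 5′ ends, GAAGGNCTG, which they share with 1 differing base (N).
Rmrp bases 1 to 271: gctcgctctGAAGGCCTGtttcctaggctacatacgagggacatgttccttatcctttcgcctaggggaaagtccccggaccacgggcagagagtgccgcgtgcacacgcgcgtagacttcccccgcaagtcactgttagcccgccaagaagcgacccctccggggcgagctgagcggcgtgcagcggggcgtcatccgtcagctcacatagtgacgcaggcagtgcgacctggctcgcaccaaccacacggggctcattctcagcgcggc
Rpph1 bases 1 to 300: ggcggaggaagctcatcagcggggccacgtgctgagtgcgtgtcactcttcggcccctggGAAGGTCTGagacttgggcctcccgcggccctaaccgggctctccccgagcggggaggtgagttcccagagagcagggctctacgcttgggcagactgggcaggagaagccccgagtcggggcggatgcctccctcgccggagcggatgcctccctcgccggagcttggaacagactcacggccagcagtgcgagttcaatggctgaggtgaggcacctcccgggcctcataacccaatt
This run is short and was found in 5.89% of all annotated transcripts. A global alignment gave 51.8% identity between Rmrp (271 bases) and Rpph1 (319 bases). Rny1 and Rny3 are closer to each other, with 72.3% identity, and share the 12-base run in capitals, which was found in 0.0212% of transcripts.
Rny1 bases 1 to 112: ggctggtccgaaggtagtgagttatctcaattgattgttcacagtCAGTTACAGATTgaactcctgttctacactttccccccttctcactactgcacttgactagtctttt
Rny3 bases 1 to 102: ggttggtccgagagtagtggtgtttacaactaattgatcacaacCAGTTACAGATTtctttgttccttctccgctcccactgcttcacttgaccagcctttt

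Cgas, the targeted gene (ENSMUSG00000032344), was read first as a check of the labels. It had 52 to 111 counts in KO libraries and 222 to 403 counts in WT libraries, so the groups did not overlap (log2 -1.99, SE 0.16, edgeR adjusted p 0.00102). Total counts ran from 27261958 to 48039328 per library. CPM below are counts divided by library size in units of 1e6, with library sizes scaled by the trimmed mean of M-values (TMM, factors 0.951 to 1.04), and tests are edgeR's quasi-likelihood F-test over all genes and repeats with Benjamini-Hochberg adjustment. Summed, the 8 fibroblast markers had 34424 to 49282.5 CPM in KO and 37394 to 52668 CPM in WT libraries. Single markers differed widely: Col1a1, a type I collagen chain, had 10865 to 17484 CPM and Lum had 0.485 to 6.40 CPM. The summed level of 10 leukocyte and macrophage markers was 6395 to 11003 CPM in KO and 4601 to 6658 CPM in WT libraries, with no marker of that list at 0 in any library. The summed level of 8 epithelial markers was 9.02 to 34.8 CPM in KO and 19.8 to 42.9 CPM in WT libraries. That of 8 endothelial markers was 55.3 to 106 CPM in KO and 40.1 to 88.4 CPM in WT libraries. In the epithelial list Scgb1a1, a secretory cell marker, was at 0 in 7 libraries, and Epcam and the lung epithelial factor Nkx2-1 were each at 0 in 3. In males Ptprc, Cd68 and Adgre1 of the leukocyte list rose in KO cells (log2 0.82, 0.93 and 1.02, adjusted p 0.0475 each). The epithelial keratin Krt19 fell in KO males (log2 -0.91, adjusted p 0.0475) and the endothelial Vwf rose (log2 1.22, adjusted p 0.0475). Vwf went against its list, in which 2 of 8 markers were positive and 6 negative in males (median log2 -1.46). The number of calls in males, 459 with all libraries, depends on single libraries, females included through the shared spread. It was 0 without WT male 1 and without any 1 of KO males 1 and 2 and KO females 2 and 3, but 1091 without KO male 3, 1012 without WT male 2, 2065 without WT female 1 and 1765 without WT female 2. The part of these cells in the values below was not tested, and in bulk samples fewer cells of a type and less RNA per cell cannot be told apart.

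One library stood apart and touches most results. WT female 2 had the lowest median correlation of log2 CPM with the other libraries (0.970, against 0.984 to 0.991 in the other 10). It had the highest share of counts on repeats (10.2%, against 5.31% to 8.10%), on long intergenic noncoding RNAs (1.28%, against 0.421% to 0.644%) and on mitochondrial ribosomal RNA (0.0270%, against 0.00950% to 0.0172%). Malat1 and Neat1 are themselves long intergenic noncoding RNAs. They took 0.838% and 0.116% of the counts of WT female 2, so its share of that class is not a measure separate from them. The 6 members with a row took 1.11% of the counts of WT female 2, against 0.389% to 0.546% in the other 10. Female and male libraries also carry differently styled file names, so sex and a possible difference in preparation cannot be told apart.

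Of the 6 members with a row, Malat1, Neat1, Rmrp and Rpph1 passed the low-count filter, and none of these 4 passed the threshold (adjusted p under 0.05) between KO and WT cells over both sexes. In that comparison edgeR called 1 of 22298 entries (0.00448%), which was Cgas, with 3829 entries at an unadjusted p under 0.05. DESeq2 called 546 entries and none of the 4 (adjusted p 0.125 for Malat1 and 0.190 for Neat1). None of the 4 was called in males, where 459 of 22960 entries (2%) were called, or in females, where 1 was (0.00436%). The genotype-by-sex difference was not called for any of the 4 either, nor for any entry (0% of 22960, with 3016 at an unadjusted p under 0.05 and 227 called by DESeq2). Malat1 and Neat1 had unadjusted p of 0.0341 and 0.0396 over both sexes, and both differences shrank when WT female 2 was left out.

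Malat1 (ENSMUSG00000092341, chromosome 19) was the most abundant member by counts, ranking between 10th and 31st of 56980 genes. Its level in KO cells had a lowest value of 1997 CPM, a median of 2958 CPM and a highest value of 3351 CPM. In WT females it was 2794 and 8814 CPM, and in WT males 2638, 3158 and 3339 CPM. WT female 2, at 8814 CPM, was 2.97 times the median of the other libraries, and the other 4 WT values lay inside the KO range. KO libraries averaged 2795 ± 533 CPM (SD, n = 6) and WT libraries 4149 ± 2623 CPM (SD, n = 5). The fitted log2 difference of KO and WT was -0.58 (SE 0.24, edgeR adjusted p 0.255). Without WT female 2 the WT mean was 2982 ± 322 CPM (SD, n = 4) and the log2 difference was -0.20 (SE 0.14, edgeR adjusted p 0.437). Without WT female 1, which makes WT female 2 the sole WT female, Malat1 passed the threshold (log2 -0.75, edgeR adjusted p 0.0456), in a fit that called 7.33% of entries. Over all 23 alternatives its adjusted p ran from 0.0456 to 0.545.

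Within the sexes Malat1 averaged 3221 ± 114 CPM in KO females (SD, n = 3), while the WT females differed from each other by more than any other pair of libraries of 1 group. In males it averaged 2369 ± 392 CPM in KO and 3045 ± 364 CPM in WT (SD, n = 3 each), with KO male 1 above WT male 1, so the groups overlapped. The log2 difference was -0.36 in males (SE 0.32, edgeR adjusted p 0.541) and -0.85 in females (SE 0.35, adjusted p 0.692). The male minus the female value was 0.48 (SE 0.48, edgeR adjusted p 0.676). That sex difference also rests on the WT females: it turned to -0.59 without WT female 2 and was 1.08 without WT female 1. Each of these fits leaves 1 WT female. Leaving out WT female 2 turned the female value to 0.20 (SE 0.19, adjusted p 1) and left the male value at -0.39 (SE 0.14, adjusted p 0.0984). In the female fit without WT female 1 the log2 difference of Malat1 was -1.44. That fit has WT female 2 as the lone WT female, assumed to vary like the other groups.

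Neat1 (ENSMUSG00000092274, chromosome 19) was far less abundant than its neighbour. In KO cells its lowest level was 88.3 CPM, its median 128 CPM and its highest 196 CPM. It reached 123 and 1220 CPM in the WT females and 83.8, 137 and 220 CPM in the WT males. The value of WT female 2 was 9.52 times the median of the other 10 libraries, whose KO and WT ranges overlapped. The mean level was 132 ± 35.4 CPM over the 6 KO and 357 ± 485 CPM over the 5 WT libraries (SD), the SD of WT exceeding its mean. The log2 difference was -1.21 (SE 0.52, edgeR adjusted p 0.268), and without WT female 2 it was -0.21 (SE 0.27, adjusted p 0.690), with adjusted p between 0.0834 and 0.690 over the 23 alternatives. In males Neat1 averaged 110 ± 19.9 CPM in KO and 147 ± 68.7 CPM in WT (SD, n = 3 each), a log2 difference of -0.42 (SE 0.62, edgeR adjusted p 0.736). The female value was -2.13 (SE 0.68, edgeR adjusted p 0.692) and turned to 0.31 (SE 0.44) without WT female 2. Without WT female 1 the same female contrast gave Neat1 a log2 difference of -2.98, with WT female 2 as the lone WT female. The male minus the female value of Neat1 was 1.72 (SE 0.92, edgeR adjusted p 0.447). It turned to -0.75 without WT female 2 and was 2.57 without WT female 1, with 1 WT female left in each fit.

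**Figure D1:**
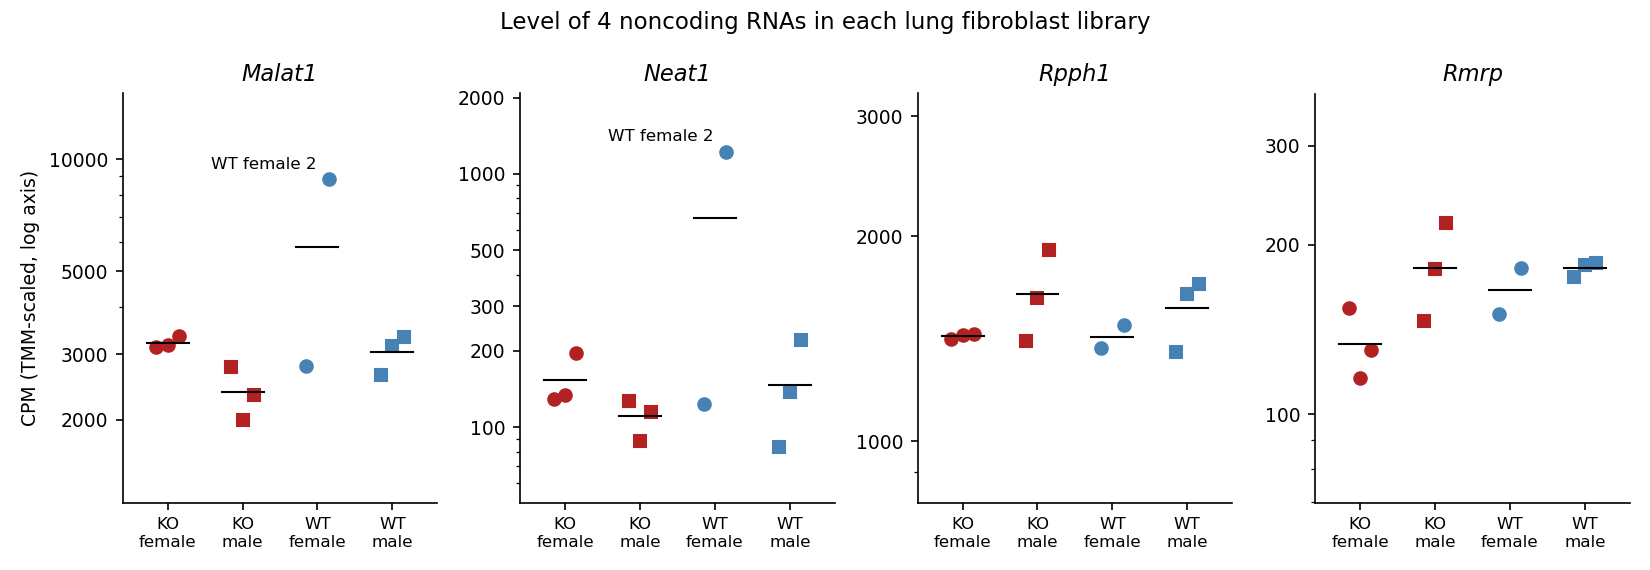
Level of Malat1, Neat1, Rpph1 and Rmrp in each library, as TMM-scaled CPM on a log axis, by genotype and sex; points are libraries and bars are group means. WT female 2 stands above all other libraries for Malat1 (8814 CPM) and Neat1 (1220 CPM) and lies inside their range for Rpph1 and Rmrp.

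Malat1 and Neat1 varied together across libraries. Pearson's r of log2 CPM was 0.963 over 11 libraries (permutation p 0.00015, adjusted over 6 pairs of members 0.0009) and Spearman's rho was 0.945 (adjusted permutation p 0.0003). Without the 2 libraries farthest from the median of Malat1, KO male 2 and WT female 2, r was 0.739. Without WT female 2 alone r was 0.780 (adjusted permutation p 0.045) and rho 0.927 (adjusted permutation p 0.0015). Among the 6 male libraries r was 0.776, which did not pass the threshold (exact permutation p 0.0639, adjusted 0.192, smallest possible 0.00278), and the 5 female libraries are too few for a value. The proportion between both RNAs was not constant: per base of annotated length Malat1 had 45.1 to 93.7 times the counts of Neat1 in 10 libraries and 21.5 times in WT female 2. These ratios take the longest form of Neat1 (20771 bases) as its length. Forms of 3004 bases and fewer are annotated too, and the part of each form in the counts was not tested. No other pair that joins a long with a small member passed the threshold (r -0.194 to 0.0866, adjusted permutation p 0.979 each).

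Rpph1 (ENSMUSG00000092837, chromosome 14), the RNase P RNA, varied little between libraries. In KO cells it ran from 1403 CPM through a median of 1436 CPM to 1907 CPM. In WT females it was 1369 and 1480 CPM, and in WT males 1354, 1646 and 1701 CPM. The highest values were those of KO male 3, WT male 3 and WT male 2, and the groups overlapped throughout. Rpph1 averaged 1536 ± 199 CPM over the 6 KO and 1510 ± 158 CPM over the 5 WT libraries (SD). The log2 difference was 0.04 (SE 0.10, edgeR adjusted p 0.863), 0.07 in males (SE 0.13, adjusted p 0.798) and 0.01 in females (SE 0.15, adjusted p 0.995). WT female 2 was at 1.03 times the median of the other libraries.

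Rmrp (ENSMUSG00000088088, chromosome 4), the RNase MRP RNA, had a lowest level of 116 CPM, a median of 150 CPM and a highest level of 218 CPM in KO cells. The WT females had 151 and 182 CPM and the WT males 175, 184 and 186 CPM. All WT values lay inside the KO range, with KO female 2 the lowest and KO male 3 the highest of all libraries. Its mean over the 6 KO libraries was 158 ± 37.0 CPM and over the 5 WT libraries 176 ± 14.4 CPM (SD), a log2 difference of -0.14 (SE 0.12, edgeR adjusted p 0.556). It was 0.00 in males (SE 0.15, edgeR adjusted p 0.999) and -0.32 in females (SE 0.17, adjusted p 0.692). The male minus the female value was 0.32 for Rmrp (SE 0.23, edgeR adjusted p 0.554) and 0.07 for Rpph1 (SE 0.20, adjusted p 0.917), and without WT female 2 it was 0.15 (adjusted p 0.846) and -0.01 (adjusted p 0.991).

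Rmrp and Rpph1 were correlated with each other (r 0.702, permutation p 0.015, adjusted over 6 pairs 0.0451; rho 0.709, adjusted permutation p 0.0557). Their r was 0.851 without KO female 2 and KO female 3, the libraries farthest from the median of Rmrp, and 0.733 without WT female 2 (adjusted permutation p 0.045), where rho was 0.624 (adjusted permutation p 0.184). In the 6 male libraries r was 0.835 (exact permutation p 0.0347, adjusted 0.192). Both were at their highest in KO male 3, and WT female 2 stood within the others.

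**Figure D2:**
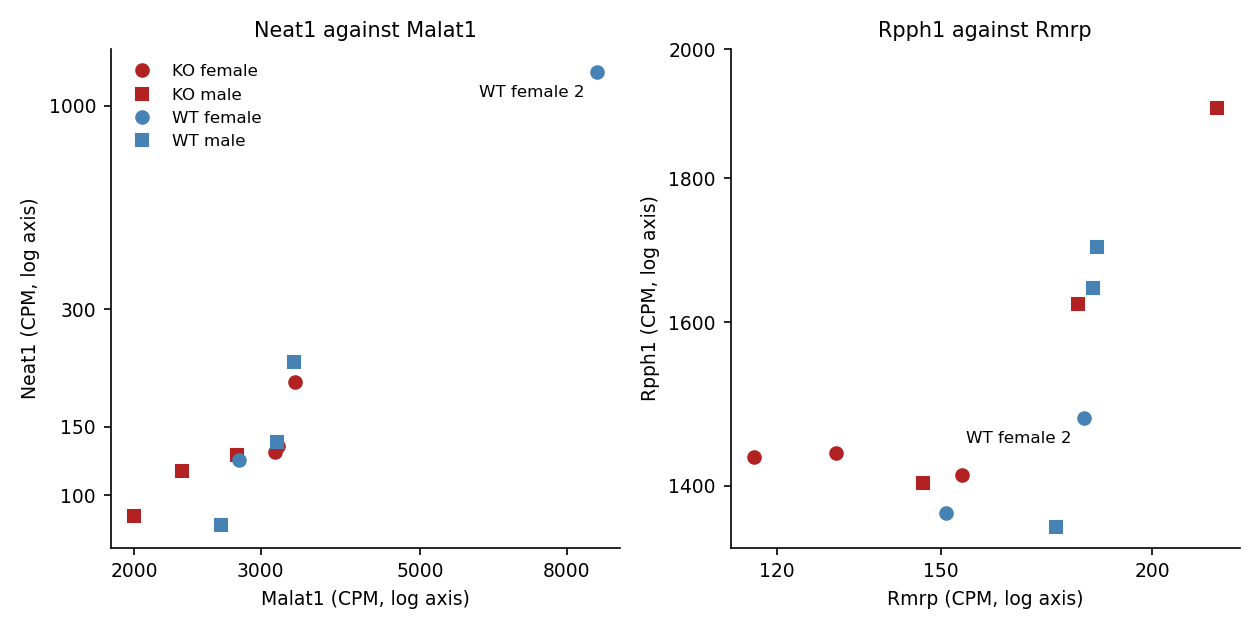
Neat1 against Malat1 and Rpph1 against Rmrp, each in CPM on log axes, with 1 point per library. Malat1 and Neat1 rise together (r 0.963 with and 0.780 without WT female 2, the point at the upper right), and Rmrp and Rpph1 are correlated (r 0.702) with WT female 2 inside the cloud.

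The rows of Rpph1 and Rmrp share their counts with genes that overlap them. Rpph1 overlaps Ccnb1ip1 on the same strand, a protein-coding gene known for its role in meiotic recombination, and the Ccnb1ip1 row was lower than the Rpph1 row by 1 to 7 counts in every library, out of 38443 to 93844. Rmrp has 2 Ensembl IDs, whose counts were identical in all 11 libraries. The protein-coding gene Ccdc107 overlaps Rmrp on the opposite strand, and its row exceeded that of Rmrp by 113 to 333 counts, which put it at 102% to 106% of Rmrp. The counting program, its use of strand and its handling of reads that overlap several genes are not stated in the labels or file headers. It is thus unknown whether reads were divided among these rows or entered in each, so the level of Rmrp and Rpph1 is uncertain. The overlapping rows gave log2 differences of KO and WT close to those of the RNAs, 0.04 for Ccnb1ip1 (edgeR adjusted p 0.863) and -0.15 for Ccdc107 (adjusted p 0.518).

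**Figure D3:**
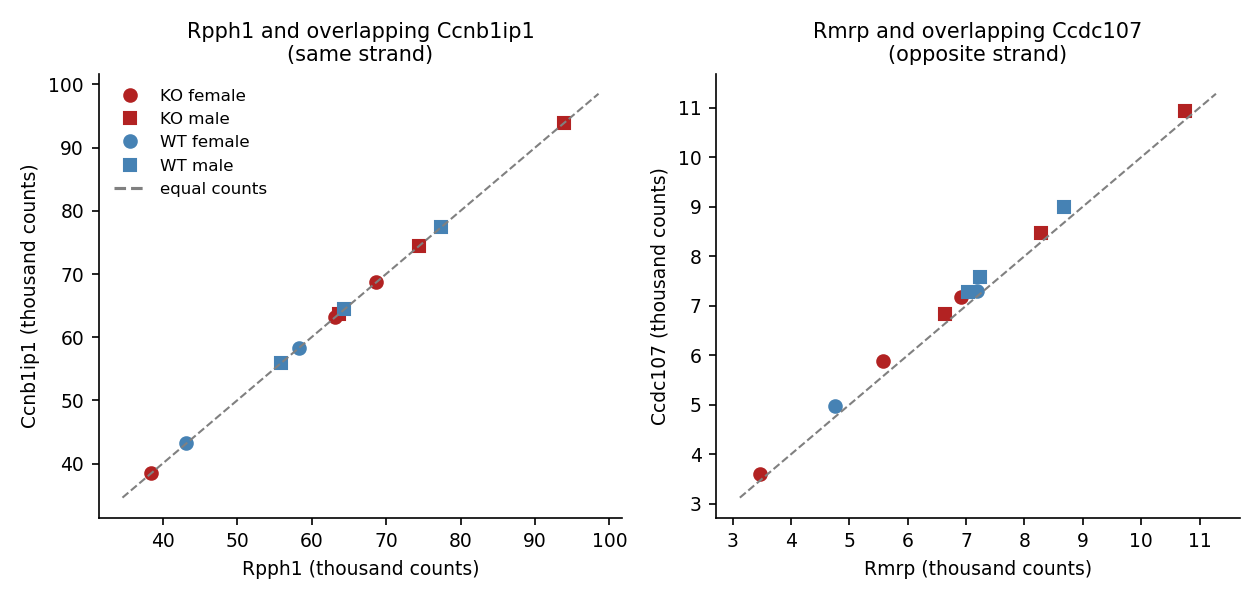
Deposited counts of Ccnb1ip1 against Rpph1 and of Ccdc107 against Rmrp, with 1 point per library and a dashed line of equal counts. Ccnb1ip1 lies on the line within 7 counts, and Ccdc107 lies above it by 113 to 333 counts.

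Per kilobase of annotated length, Rpph1 ranked 1st to 4th of 52073 genes with a length. Its level was 4816 ± 624 CPM per kb in KO (SD, n = 6) and 4734 ± 497 CPM per kb in WT (SD, n = 5). Rmrp followed with 582 ± 136 and 649 ± 53.2 CPM per kb, and Malat1 with 400 ± 76.3 and 594 ± 376 CPM per kb, in KO and WT. The ranges of Rmrp (429 to 805 CPM per kb) and Malat1 (286 to 1262 CPM per kb) overlapped, so their order does not hold in every library. Neat1 had 6.33 ± 1.71 CPM per kb in KO and 17.2 ± 23.4 CPM per kb in WT, with its longest form (20771 bases) as length. Counts from its shorter annotated forms would make this level too low, and their part was not tested. The step from Rpph1 to Rmrp was 6.55 to 10.5 times in each library and is subject to the sharing of reads described above.

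Rny1 (ENSMUSG00000065701) and Rny3 (ENSMUSG00000064945), which bind Ro60 and lie near each other on chromosome 6, were at the limit of detection and failed the filter. Rny1 had 8, 2 and 0 counts in KO females, 4, 2 and 9 counts in KO males, 1 and 5 counts in WT females and 3, 2 and 4 counts in WT males. Rny3 had 1, 3 and 0 counts in KO females, 0 counts in each of the 3 KO males, 1 and 0 counts in WT females and 3, 5 and 2 counts in WT males. Rny1 was scattered over both genotypes. Rny3 gave 4 counts in 6 KO libraries and 11 counts in 5 WT libraries. A count of 0 allows up to 3 counts, which is 0.0610 to 0.112 CPM across the libraries and covers counting error only, since reads are not independent molecules. A difference in either Y RNA was not detectable with these counts, and no fold is given. Of 562 IDs that the annotation classes as miscellaneous small RNA, 32 had a row.

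The annotated neighbours of the members named here were not called between genotypes. Frmd8os, next to Neat1, had 3.57 ± 0.283 CPM in KO and 3.44 ± 0.498 CPM in WT (edgeR adjusted p 0.880). In WT female 2 Frmd8os stood at 4.11 CPM, against a highest value of 4.05 CPM in the other 10 libraries, a smaller step than that of Neat1. Gm37376, a transcript annotated across Malat1 on the opposite strand, had 2.62% to 3.52% of the counts of Malat1, and without strand its reads cannot be told apart from those of Malat1. Parp2 beside Rpph1 (log2 0.09, edgeR adjusted p 0.501), Arhgef39 beside Rmrp (log2 0.10, adjusted p 0.758) and Pdia4 beside Rny1 (192 ± 6.98 CPM in KO and 195 ± 30.2 CPM in WT, adjusted p 0.987) were not called. The neighbours Sit1, Gm48938, Rpl31-ps7 and Gm25283 had at most 1 count in any library.

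The genes most like Malat1 over the 11 libraries, by Pearson's r of log2 CPM, were Clk4, a kinase of splicing factors (r 0.991), Mdm4, an inhibitor of p53 (r 0.990), and Gm43759 (r 0.984). For Neat1 they were Akap8l (r 0.982), Tmie (r 0.981) and Mdm4 (r 0.979). These coefficients share the pull of WT female 2, where Clk4 had 23.9 CPM against a median of 11.03 CPM in the other libraries and Mdm4 had 61.3 CPM against a median of 38.98 CPM. Without that library r with Malat1 was 0.951 for Clk4 and 0.944 for Mdm4, and r with Neat1 was 0.879 for Akap8l. For Rmrp and Rpph1 the first were the overlapping Ccdc107 (r 0.999) and Ccnb1ip1 (r 1.00), followed by Ripor1 (0.928) and Mief2 (0.922) for Rmrp and by AC166110.4 (0.950) and Cdc42ep5 (0.949) for Rpph1. They are the highest coefficients among all genes tested and are given as a description.

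The genes of proteins that assemble on these RNAs were read beside them, and none passed the threshold over both sexes (1 of 22298 entries did by edgeR). Values given for proteins here and below are levels of their transcripts, and the proteins themselves were not measured. Of 15 paraspeckle proteins, which bind Neat1, 6 had a positive and 9 a negative log2 difference, with a median of -0.02 beside a median of -0.02 over all entries, and 0 were called, with Pspc1 at -0.14 (edgeR adjusted p 0.394) and Hnrnpul1 at 0.10 (adjusted p 0.485) having the smallest p. Without WT female 2, 1 of the 15 was positive (median -0.12, against -0.03 over all entries). By sex, 1 was positive and 14 negative in males (median -0.14, against -0.02 over all entries). In females 12 were positive and 3 negative (median 0.17, against 0.01 over all entries). WT female 2, 1 of only 2 WT females, was the lowest library for 11 of these 15. Nuclear speckle proteins had 5 positive and 13 negative values of 18 (median -0.08), with 2 at an unadjusted p under 0.05 and none among the paraspeckle or the RNase P and MRP proteins. Of the 18, 2 were positive without WT female 2 (median -0.19). The smallest p among the speckle proteins belonged to the kinases Clk1 (log2 -0.38, edgeR adjusted p 0.229) and Clk4 (log2 -0.40, adjusted p 0.264). Of 11 protein subunits of RNase P and RNase MRP, 4 were positive and 7 negative (median -0.07), with Rpp30 at -0.18 (edgeR adjusted p 0.394) and Pop5 at -0.15 (adjusted p 0.556). Of these 11, 0 were positive without WT female 2 (median -0.10). In males 1 was positive and 10 negative (median -0.11), and in females 7 were positive and 4 negative (median 0.14). WT female 2 was the lowest library for 6 of these 11.

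The transcripts of the partners of the RNAs that had no or few counts were measured too. Of 13 genes of the 7SK ribonucleoprotein and its target P-TEFb, 7 were positive and 6 negative (median 0.00), with the P-TEFb inhibitor Hexim2 at 0.48 (edgeR adjusted p 0.179) and the elongation factor Ell2 at -0.15 (adjusted p 0.221). The 13 telomerase and H/ACA proteins split 6 to 7 (median -0.01), with Tep1 at 0.29 (edgeR adjusted p 0.206) and Gar1 at -0.34 (adjusted p 0.384). Of 14 proteins of Y RNA particles, 5 were positive and 9 negative (median -0.08), with Ybx3 at -0.42 (edgeR adjusted p 0.184) and the Ro-associated ubiquitin ligase Trim21 at 0.35 (adjusted p 0.203). RNA polymerase III, the enzyme that makes Rpph1, Rmrp, Rny1 and Rny3, and its factors split 16 to 16 (median -0.01). Snapc3, a subunit of the complex that binds the promoters of these RNAs, was at -0.31 (edgeR adjusted p 0.185). The repressor Maf1 was at 0.20 (adjusted p 0.208). Without WT female 2, 8 of these 32 were positive (median -0.06), as were 3 of the 14 Y RNA proteins (median -0.13), 6 of the 13 7SK genes (median -0.00) and 6 of the 13 telomerase proteins (median -0.05). At an unadjusted p under 0.05 there were 2 genes in the 7SK, Y RNA and polymerase III lists each and 1 in the telomerase list. No gene of these lists was called in males, in females or in the difference between the sexes either.

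Other long noncoding RNAs were followed in a list of 20 tested genes. Of the 20, 4 were positive and 16 negative (median -0.32, against -0.02 over all entries), and 0 were called by edgeR, with 10 at an unadjusted p under 0.05, beside 3829 of all 22298 entries. The median of the 20 without WT female 2 was -0.19, against -0.03 over all entries. All 531 long intergenic noncoding RNA genes tested had 232 positive and 299 negative values with a median of -0.05. Snhg1, a host of small nucleolar RNAs, had the smallest p (log2 -0.53, edgeR adjusted p 0.179), followed by the imprinted H19, which had 15.2 ± 4.79 CPM in KO and 5.53 ± 2.63 CPM in WT (log2 1.46, adjusted p 0.179). WT female 2 was the highest library for 12 of the 20 (60%), among them, chosen here after their values were seen, Meg3 (125 CPM, against 19.1 to 55.5 CPM in the other 10) and Firre (12.7 CPM, against 3.54 to 6.92 CPM). It was the highest for 26.5% of all entries tested and for 27.3% of the 531 long intergenic noncoding RNA genes. It was the lowest for Tug1 (62.8 CPM, against 89.0 to 107 CPM) and Oip5os1 (70.1 CPM, against 103 to 153 CPM). Among 9 tested structural small RNA genes 2 were positive and 7 negative (median -0.21), with the small nucleolar RNA Snora73b at -0.58 (edgeR adjusted p 0.179) and Rnu73b at -0.93 (adjusted p 0.204). Mitochondrial ribosomal RNA genes mt-Rnr1 (log2 -0.29, edgeR adjusted p 0.444) and mt-Rnr2 (log2 -0.28, adjusted p 0.515) had their highest level in WT female 2. The share of counts on mitochondrial messenger RNA was highest there too (1.29%, against 0.707% to 1.01% in the other 10). Whether the ribosomal RNA level reflects the depletion was not tested.

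**Figure D4:**
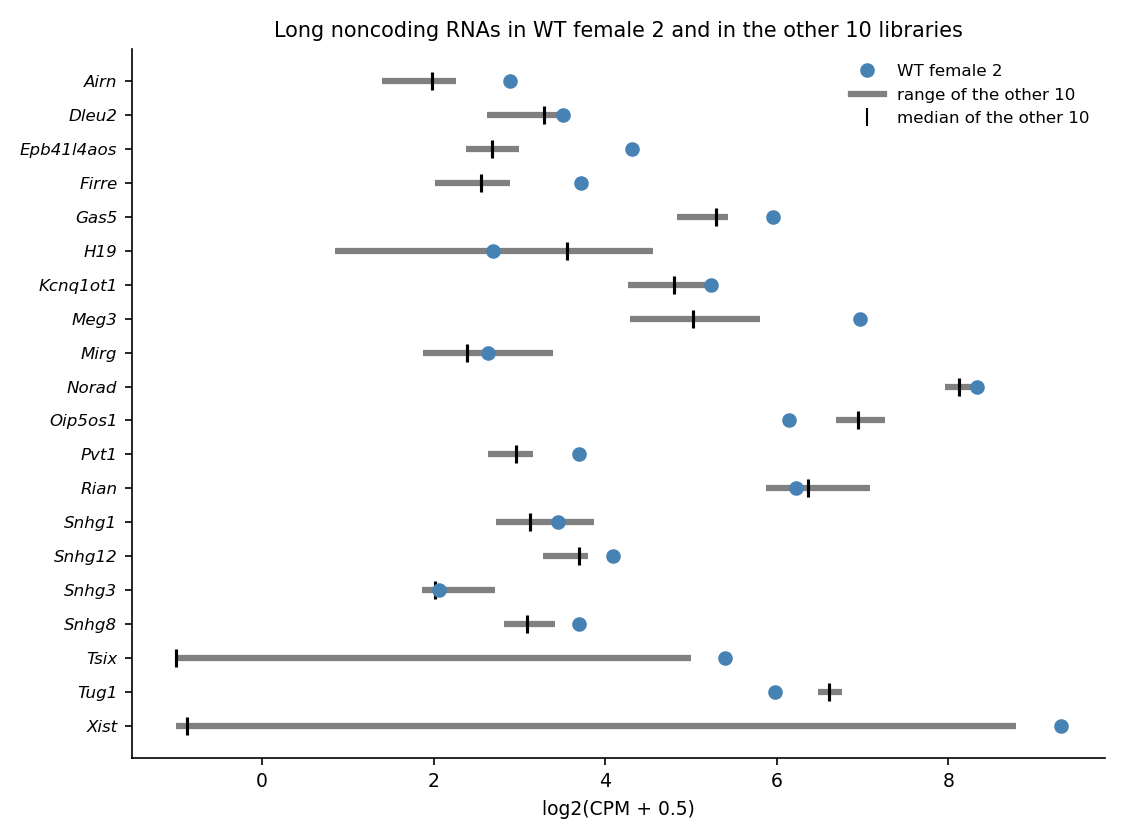
Level of 20 other long noncoding RNAs as log2(CPM + 0.5): the dot is WT female 2, the grey bar the range of the other 10 libraries and the tick their median. WT female 2 lies above the range for 12 genes and below it for Tug1 and Oip5os1. Xist, made in females, and Tsix count among the 12.

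The dependence of the member values on single libraries was followed by leaving out each of the 11 in turn. For Malat1 the log2 difference of KO and WT stayed between -0.75 and -0.20, and for Neat1 between -1.48 and -0.21, with the value nearest 0 in both cases that without WT female 2. Rmrp stayed between -0.25 and -0.08. Rpph1 moved between -0.04 and 0.07, each within 1 SE of 0, and changed sign without KO male 3 or WT male 1.

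**Figure D5:**
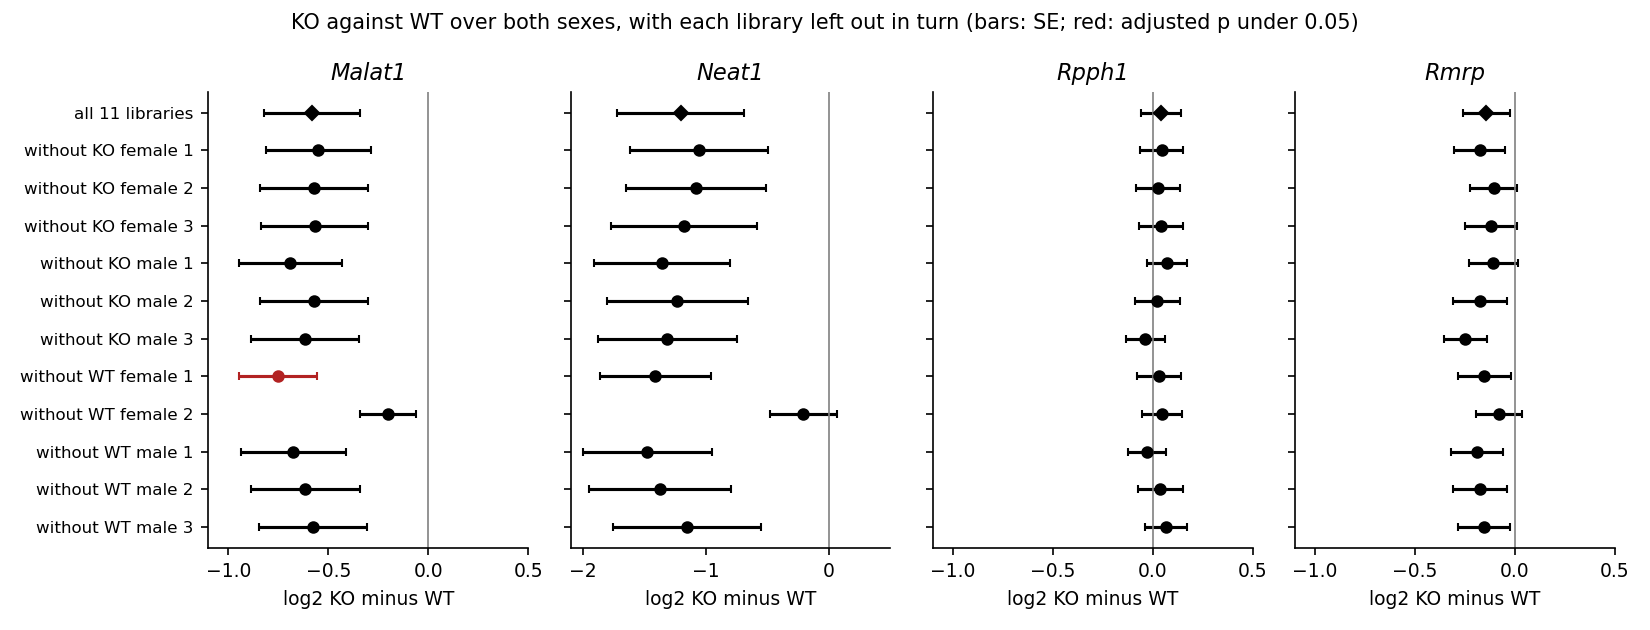
Log2 difference of KO and WT over both sexes with its SE for the 4 tested members, with all libraries (diamond) and with each library left out in turn (dots); red marks an edgeR adjusted p under 0.05. Malat1 and Neat1 move toward 0 without WT female 2, and the red value is Malat1 without WT female 1.

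The RefSeq promoter table held 1 of the 8 members, Malat1. Its 300-base window held none of the motifs TATAAA, ATTTGCAT or CCAAT on either strand, which were found in 13.6%, 1.74% and 37.4% of 32851 windows.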

How the data were processed

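Each library came as its own table of counts for genes and repeat subfamilies, deposited by the authors without normalization, per the file headers and the whole numbers in them. The tools listed in the submitters' processing notes, without version or order, are Trim Galore (adapter trimming) and STAR (alignment), and the build listed is GRCm39. How reads were counted is not given in the sources used here. Symbols came from the GENCODE vM21 annotation (GRCm38), used for names, lengths and neighbours only; it named 52073 of 56980 gene IDs. Its older build is why no coordinates are given.

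Each library held 58223 entries. Counts were tested with edgeR 4.0.16 in R 4.3.3 (filterByExpr, minimum count 10, TMM; model of sex and genotype, or a mean per genotype and sex for the contrasts within sexes), with Benjamini-Hochberg adjustment over all entries tested and a threshold of 0.05. SE is the log2 difference divided by the square root of F. Correlations used 100000 permutations. DESeq2 1.42.0 and limma 3.58.1 were alternatives, and the edgeR script was tested on simulated data. Replicate libraries of a group differed by a chi-square per degree of freedom of 12.0 to 144. The members and lists were chosen with earlier results of these data known. Named genes were the members, Cgas, in each partner list the genes past the threshold and the 2 with the smallest p, the 3 genes most like each member, and the nearest neighbours, of which 1 is not reported here. Cell type lists are given by their sums and called genes.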

Additional observations from a re-analysis of the deposited data

Results flagged for a closer look

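Malat1 in WT female 2 (8814 CPM) lay far from the other 4 WT libraries: its gap to the next highest took 0.887 of the WT range, above Dixon's critical value of 0.71 for 5 samples. Neat1 in WT female 2 (1220 CPM) did likewise, with a gap of 0.880 of the range. These were 2 of 8 groups examined (4 members in KO and in WT), and chance flags about 1 group in 20; both come from 1 library. Its higher shares of repeats and of mitochondrial ribosomal RNA were given above, and their part in these values was not tested. The share of long intergenic noncoding RNA, also given above, includes Malat1 and Neat1 themselves.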

How the results depend on the processing

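Over both sexes, Malat1 kept its direction in all 23 alternatives and passed the threshold in 1, without WT female 1 (log2 -0.75); Neat1 and Rmrp kept direction and call in all 23. This does not hold within females or for the sex difference, where Malat1 and Neat1 changed direction without WT female 2. Their values there grew in size without WT female 1, as given above. Rpph1 kept its call in all and turned sign in 2, to -0.04 without KO male 3 and -0.03 without WT male 1. Leaving out 1 library at a time gave log2 differences of -0.75 to -0.20 for Malat1, -1.48 to -0.21 for Neat1, -0.25 to -0.08 for Rmrp and -0.0363 to 0.0719 for Rpph1. CPM from total counts alone moved no group mean of a member by 1 SD.

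The counts of called entries moved far more than the members did; the cause was not tested. Over both sexes 1 entry was called, against 3 with no low-count filter, 546 by DESeq2, 1557 by limma-voom with sample weights (0.150 for WT female 2) and 1 to 1678 leaving out 1 library, the most without WT female 1. In males 459 were called, against 284 with RLE size factors, 4 with total counts alone, 1079 with no filter, 8 with a minimum count of 5, 2126 by DESeq2, 10 by limma-voom, 3722 with sample weights and 0 to 2065 leaving out 1 library. In females 1 was called, against 0 with total counts alone, 6 by DESeq2, 0 by limma-voom with and without weights and 0 to 3709 leaving out 1 library. The genotype-by-sex difference had 0, against 2 with no filter, 227 by DESeq2 and 0 to 2435 leaving out 1 library. With the replicate block over sex and number, 0 entries were called over both sexes, in males and in females, also without WT female 2 (an alternative added after seeing the data), and Malat1 was at -0.48 (edgeR adjusted p 0.463) and Neat1 at -0.75 (adjusted p 0.561). Libraries of the same number shared only a number: the correlations of their deviations from group means were -0.185 to 0.111.

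The Y RNAs had too few counts to pass the low-count filter. With no filter neither was called over both sexes (edgeR adjusted p 0.557 for Rny3 and 0.859 for Rny1), nor was Rny3 in males (adjusted p 0.103). Whether depth, library making or the handling of small RNA genes set their low counts was not tested. The read sharing of Rmrp and Rpph1 with overlapping genes bounds their level at any depth.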

Other observations

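The genes with which the speckle and paraspeckle lists moved in WT female 2 were chosen after their values were seen. The splicing factors Srsf1 (40.3 CPM, against 114 to 204 CPM in the other 10 libraries), Srsf2 (39.2 CPM, against 79.0 to 138 CPM) and Srsf3 (43.9 CPM, against 91.7 to 151 CPM) were lowest there. The kinases Clk1 (51.2 CPM, against 21.2 to 31.0 CPM) and Clk4 (23.9 CPM, against 8.76 to 12.3 CPM) were highest there. Other genes of the speckle list went up with the kinases: Srsf5 (81.7 CPM, against 64.0 to 73.2 CPM) and Srrm2 (535 CPM, against 388 to 472 CPM) were also highest there. By transcript level WT female 2 was the lowest library for 11 of 15 paraspeckle genes, 9 of 18 nuclear speckle genes and 6 of 11 RNase P and MRP genes. It was the lowest for 6158 of all 22298 entries tested. It was the highest library for 1 of the 15, 4 of the 18 and 0 of the 11, and for 5908 of all 22298 entries. It was the highest library for 872 of 1085 repeat subfamilies (80.4%).

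Rn7sk, which is not analysed here, and Cgas lie on the same chromosome with 17 annotated genes between them. Of these, 2 were tested and 0 were called by edgeR over both sexes: Gsta4, a glutathione transferase, at log2 -0.49 (edgeR adjusted p 0.437) and Ddx43 at log2 2.15 (SE 0.50, adjusted p 0.179).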
